A study of Mus musculus with 6 samples.

Results

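Plau, Plaur, Plat, Serpine2, Serpinb2, Serpinf1, F3, Tfpi and Thbd are genes of plasminogen activation, its serpin inhibitors and the start of blood coagulation. They were taken by name, as the reads whose annotation equals each symbol, and make up 9 of 14766 gene annotations with reads. Messenger RNA was sequenced from Mvt1 cells, a mammary carcinoma line of epithelial origin from FVB/N mice, stained for CD24 and separated on a cell sorter. The CD24- group had no CD24 on the cell surface and the CD24+ group had it, and both were grown in DMEM with 10% fetal bovine serum, penicillin and streptomycin. RNA was prepared from 3 plates of each group, which gave 3 libraries against 3. The study set out to find transcripts that differ between the sorted groups. The sources describe no independent sorts, so p-values measure the spread between plates, and a difference tied to CD24 cannot be told apart from any other difference that arose between the sorted groups.

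Plasminogen is a circulating proenzyme that urokinase (Plau) or tissue plasminogen activator (Plat) cleaves to plasmin, a protease that dissolves fibrin and degrades extracellular matrix. The urokinase receptor (Plaur) holds urokinase at the cell surface, and serpins are inhibitors that trap proteases such as these in a covalent complex. Coagulation starts when tissue factor (F3) meets its plasma ligand, and both systems are studied in tumours because they act on matrix, fibrin and invasion.

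In CD24+ cells 4 of the 9 genes were higher, 2 were lower and 3 did not pass the test. Thbd (10.4-fold), Serpine2 (7.25-fold), Serpinf1 (4.30-fold) and F3 (1.89-fold) were higher, whereas Serpinb2 (13.9-fold) and Plaur (1.47-fold) were lower. The fold of Serpinb2 leans on CD24- replicate 3: its log2 fold change was -3.80, and -2.81 without that library. Plau, Plat and Tfpi did not pass an adjusted p of 0.05 in edgeR's quasi-likelihood test, adjusted by Benjamini-Hochberg over the 11125 genes tested. The 6 calls are 66.7% of the members, beside 46.1% of all genes tested (23.8% higher and 22.3% lower in CD24+ cells). For 7 members (77.8%) the 3 values of the groups did not overlap, beside 57.3% of all genes tested. Thbd and Serpinf1 had enough reads to test only through their CD24+ level, and Serpinb2 only through its CD24- level. Such entry favours a call and ranges that do not overlap, and the members were chosen with earlier results of these data known. Neither share of the members can thus be set plainly against that of all genes tested. The median log2 fold change of the members was 0.44, the value of Plat, which did not pass, beside 0.016 over all genes tested. With 10 added to quantile-normalized CPM, the same 6 genes were called but the log2 fold changes of the low ones shrank, to 0.71 for Thbd, -0.55 for Serpinb2 and 0.23 for Serpinf1. The study adds its regularizer of 10 to a median coverage per transcript, so this shrinkage is not that of the study's own step.

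**Figure D1:**
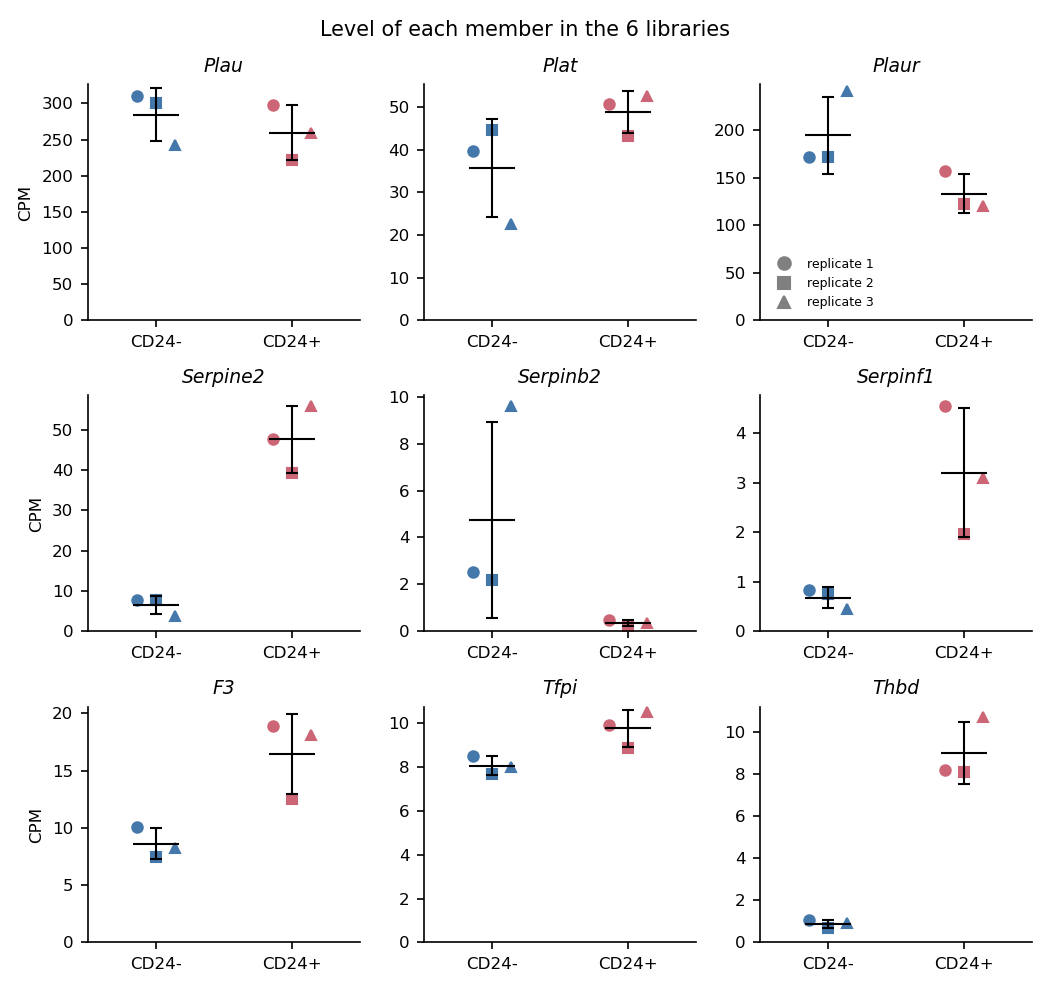
Level of each of the 9 genes in CPM (counts scaled to gene reads, linear axes from 0) in the 3 CD24- and the 3 CD24+ libraries. Each symbol is a library, marked by its replicate number, and the bars give the mean and SD, so that the separated groups of Serpine2 and Thbd can be set against the overlapping ones of Plau and Plat.

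The deposited counts summed to between 9046025 mapped reads, in CD24+ replicate 1, and 25692147, in CD24+ replicate 3, and 71.8% to 74.3% of a library's reads were annotated to a gene. Levels are given in CPM, edgeR's scale of counts relative to each library's gene reads, after TMM scaling, and 1 read was worth 0.0524 to 0.157 CPM. Across genes, log2 CPM correlated between 0.988 and 0.996 within a group and between 0.907 and 0.920 across groups. Cd24a, the gene of the sorted marker, had 12.1, 11.5 and 6.99 CPM in the CD24- and 73.3, 85.5 and 72.5 CPM in the CD24+ libraries (log2 fold change 2.91, SE 0.17, adjusted p = 5.39e-07, edgeR). Of 8 mammary epithelial markers 5 had under 10 reads over all libraries (Krt5, Krt14, Epcam, Cdh1 and Cldn7), and their summed level was 1834 to 2029 CPM in CD24- and 758 to 902 CPM in CD24+ libraries. Nearly all of that sum was Krt8 and Krt18, while Cldn3 was at 0 to 0.663 CPM in CD24- and 1.81 to 3.30 CPM in CD24+ libraries. Of 6 mesenchymal markers 5 had at least 100 reads and Thy1 had none, and the sum, nearly all of it Vim, was 3591 to 4462 CPM in CD24- and 4199 to 5058 CPM in CD24+ libraries. The other 4 were higher in every CD24+ library than in any CD24- library. Prrx1 was at 4.63 to 4.73 CPM in CD24- and 76.5 to 106 CPM in CD24+ libraries, and Pdgfrb at 3.38 to 5.59 and 49.9 to 77.5 CPM. Acta2 was at 0.105 to 0.789 and 5.48 to 12.4 CPM, and Col1a1 at 0.563 to 1.52 and 2.67 to 4.14 CPM. These markers moved with the members that rose, and their part in those results was not tested. CD24- replicate 3 differed from CD24- replicates 1 and 2 with chi-square values, over genes and per degree of freedom, of 9.81 and 11.4, against 1.71 between those replicates and 9.33 to 15.2 between CD24+ libraries, and results are also given without it where it matters. In such bulk samples fewer cells of a type and less RNA per cell cannot be told apart.

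The reads themselves show how directly the genes can be told apart. The most frequent coding read is printed for the abundant Plau and Plaur, and for Serpine2, Serpinb2 and Thbd, which changed more between the groups. All letters are lower case, since no base is singled out, and positions are those of the deposited files (mm9):
Plau, chr14:21660263-21660309, plus strand: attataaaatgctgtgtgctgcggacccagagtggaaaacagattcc
Plaur, chr7:25259285-25259331, plus strand: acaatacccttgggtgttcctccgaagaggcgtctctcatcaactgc
Serpine2, chr1:79799446-79799492, minus strand: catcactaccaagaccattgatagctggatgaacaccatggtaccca
Serpinb2, chr1:109412159-109412205, plus strand: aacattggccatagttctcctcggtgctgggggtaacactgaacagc
Thbd, chr2:148233538-148233584, minus strand: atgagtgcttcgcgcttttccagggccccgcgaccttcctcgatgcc
The Plau sequence was read 12, 8 and 10 times in the CD24- libraries and 10, 19 and 25 times in the CD24+ libraries. For Plaur these counts were 22, 14 and 20 in CD24- and 8, 18 and 20 in CD24+ libraries. The Serpine2 sequence was read 0, 2 and 0 times in CD24- and 2, 8 and 9 times in CD24+ libraries. The Thbd sequence was seen 0, 0 and 0 times against 0, 2 and 4 times, and the Serpinb2 sequence in CD24- replicate 3 alone, with 4 reads. Such raw counts are not scaled to depth, and the levels below sum 131 to 3319 distinct sequences per gene for these 5 genes. No read annotated to a member and matching its transcripts also matched a transcript of another gene. Annotated reads that matched no member transcript, such as 1009 for Plau and 19 for Serpinf1, were not searched.

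Of the plasminogen activators, Plau lies on chromosome 14, where its reads ran from 21655890 to 21662590 (mm9), and had the most reads of the 9 genes, 19053. The Plau level was 310, 301 and 242 CPM in the CD24- and 298, 222 and 259 CPM in the CD24+ libraries. Its ranges overlapped. The log2 fold change was -0.13 (SE 0.12, 95% interval -0.41 to 0.14, adjusted p = 0.401, edgeR). Plat, on chromosome 8 between 23868197 and 23893211, had 39.8, 44.5 and 22.7 CPM in CD24- and 50.7, 43.2 and 52.5 CPM in CD24+ libraries. The groups overlapped because CD24+ replicate 2 fell below CD24- replicate 2. The log2 fold change of Plat was 0.44 (SE 0.20, adjusted p = 0.0962, edgeR), and it depended on the low value of CD24- replicate 3, being 0.21 without it (adjusted p = 0.156). Without CD24- replicate 2 it was 0.64 and passed the threshold (adjusted p = 0.0318).

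Plaur, the receptor that anchors urokinase, lies on chromosome 7 between 25247474 and 25260850. It had 172, 172 and 242 CPM in the CD24- and 157, 123 and 120 CPM in the CD24+ libraries. Every CD24+ library was below every CD24- library, and CD24- replicate 3 was well above the rest. Plaur fell by 0.56 on the log2 scale (SE 0.15, adjusted p = 0.0114, edgeR). The fall is small: the log2 fold change was -0.38 without CD24- replicate 3 (adjusted p = 0.0216), and the call was lost without CD24+ replicate 3 (-0.50, adjusted p = 0.0521) and when copies of a sequence were ignored (-0.35, adjusted p = 0.114). Per transcript length, the level of Plau was 1.20, 1.15 and 0.659 times that of Plaur in the CD24- and 1.22, 1.17 and 1.42 times in the CD24+ libraries.

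Serpine2 encodes protease nexin, a secreted inhibitor of thrombin, urokinase and tissue plasminogen activator, and lies on chromosome 1 between 79790826 and 79855218. Its level was 7.89, 7.68 and 3.94 CPM in CD24- and 47.7, 39.3 and 55.8 CPM in CD24+ libraries. The lowest CD24+ value was several times the highest CD24- value. Serpine2 rose by 2.86 on the log2 scale (SE 0.22, 95% interval 2.37 to 3.35, adjusted p = 3.58e-06, edgeR) and by 2.61 to 3.01 when any library was left out.

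Serpinb2 encodes a urokinase inhibitor of clade B, the serpins that stay largely inside the cell, and lies on chromosome 1 between 109412047 and 109422066. It had 2.52, 2.18 and 9.58 CPM in the CD24- and 0.472, 0.226 and 0.367 CPM in the CD24+ libraries. These values rest on 24, 23 and 85 reads in CD24- and 3, 4 and 7 reads in CD24+ libraries. All CD24+ libraries were below all CD24- libraries, and CD24- replicate 3 held most of the reads. Serpinb2 fell by 3.80 on the log2 scale (SE 0.69, adjusted p = 0.00135, edgeR), or by 2.81 when CD24- replicate 3 was left out (adjusted p = 2.21e-04). Over summed reads the CD24+ level was 7.11% of the CD24- level (95% exact interval 3.78% to 12.4%, counting error only). This share rests mostly on the 85 reads of CD24- replicate 3 and was not computed without them.

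Serpinf1 encodes pigment epithelium-derived factor, a secreted serpin known for restraining blood vessel growth rather than for blocking a protease. Its reads lay on chromosome 11 between 75223565 and 75236059. The level was 0.842, 0.758 and 0.451 CPM in CD24- and 4.56, 1.98 and 3.09 CPM in CD24+ libraries. These came from 8, 8 and 4 reads against 29, 35 and 59 reads, and the groups did not overlap. Serpinf1 rose by 2.10 on the log2 scale (SE 0.41, adjusted p = 0.00190, edgeR). It was the member with the lowest share of reads matching its annotated transcripts, 86.7%. Counted on those reads alone, a choice made after seeing the data, it had 1, 6 and 1 reads in CD24- and 28, 31 and 57 reads in CD24+ libraries, and the log2 fold change was 3.31 (adjusted p = 9.92e-04).

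F3 encodes tissue factor, the membrane protein that triggers coagulation, and lies on chromosome 3 between 121426445 and 121437933. It had 10.1, 7.49 and 8.23 CPM in the CD24- and 18.9, 12.5 and 18.1 CPM in the CD24+ libraries. The groups did not overlap, and F3 rose by 0.92 on the log2 scale (SE 0.19, adjusted p = 0.00301, edgeR). Tfpi, the Kunitz-type inhibitor of the tissue factor pathway, lies on chromosome 2 between 84273016 and 84314259. Its level was 8.52, 7.68 and 8.0 CPM in CD24- and 9.91, 8.86 and 10.5 CPM in CD24+ libraries. All 3 CD24+ values lay above the CD24- values, as in 29.7% of the tested genes. The difference did not pass the test (log2 fold change 0.28, SE 0.15, 95% interval -0.06 to 0.61, adjusted p = 0.158, edgeR).

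Thbd encodes thrombomodulin, an endothelial receptor that turns thrombin from a clotting protease into an activator of protein C, and lies on chromosome 2 between 148230215 and 148233850 as a gene with a single exon. It had 1.05, 0.663 and 0.902 CPM in CD24- and 8.18, 8.07 and 10.7 CPM in CD24+ libraries, from 10, 7 and 8 reads against 52, 143 and 204 reads. The groups were far apart, and Thbd rose by 3.37 on the log2 scale (SE 0.26, 95% interval 2.80 to 3.95, adjusted p = 3.54e-06, edgeR), by 3.20 to 3.53 when any library was left out. Of 5 endothelial markers none had 100 reads over all libraries: Tek had 63, Cdh5 62, Pecam1 9, Kdr 2 and Emcn 0. Cdh5 was at 1.58 to 2.27 CPM in CD24- and 0.113 to 0.472 CPM in CD24+ libraries, opposite in direction to Thbd, and Tek overlapped between the groups. The summed level of the 5 markers was 2.25 to 3.98 CPM in CD24- and 0.681 to 1.89 CPM in CD24+ libraries. The leukocyte and platelet markers, 3 of 6 genes with at least 100 reads, summed to 49.7 to 84.6 CPM in CD24- and 10.1 to 11.1 CPM in CD24+ libraries. That difference lay in Cd68 (43.4 to 76.1 against 6.94 to 9.44 CPM) and Itgam (3.27 to 4.45 against 0 to 0.0524 CPM). The platelet markers Itga2b and Gp1ba overlapped between the groups, and Ptprc had 2 reads, both in CD24+ replicate 3. The part of Cd68 and Itgam in the results for Serpinb2 and Plaur, which were also lower, was not tested.

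**Figure D2:**
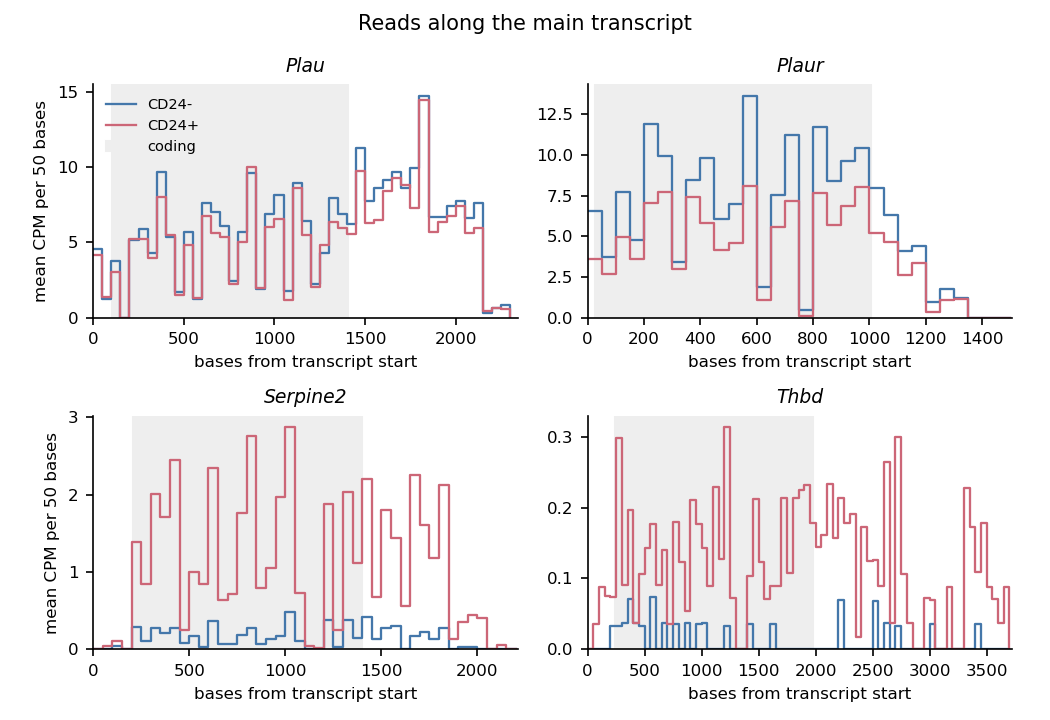
Mean CPM, here without TMM scaling, of reads with their midpoint in each 50-base stretch of the main transcript. Plau, Plaur, Serpine2 and Thbd are shown against distance from the transcript start, with the coding part shaded. CD24+ (red) exceeds CD24- (blue) along the length of Serpine2 and Thbd, the lines of Plau nearly coincide, and Plaur is lower in CD24+ cells in most stretches.

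Reads were spread over the transcripts of these 4 genes. Across the 9 genes, 48.5% to 92.6% of the matched reads fell in coding sequence. The rise of Serpine2 and Thbd was visible in the coding part and after it.

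**Figure D3:**
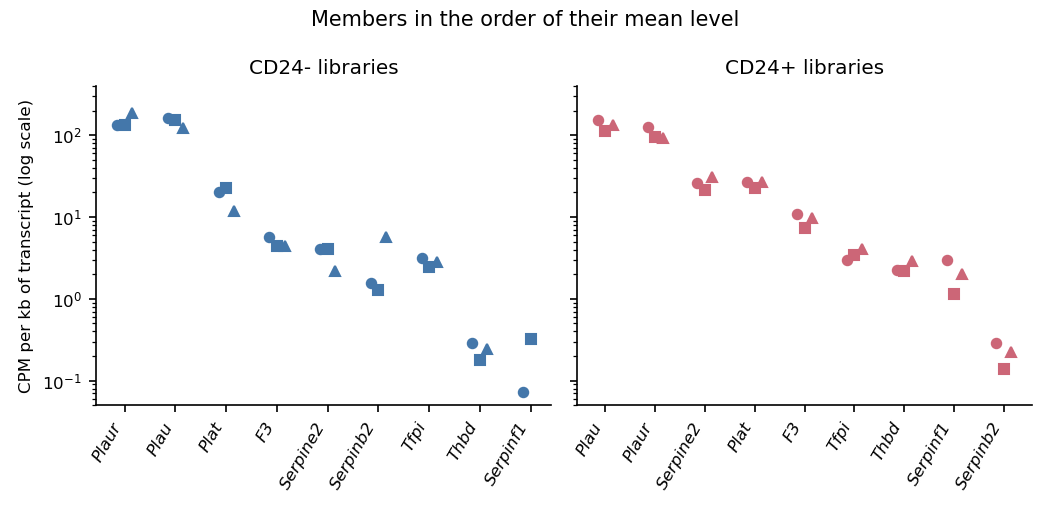
Level of the 9 genes in CPM per kilobase from reads on the main transcript (log axis; 375 of 654 reads for Tfpi), in the order of their mean, for CD24- libraries (left) and CD24+ libraries (right). Points are libraries, and a value of 0 (Serpinf1 in CD24- replicate 3) is not drawn. The mean of Serpine2 moves from 3.45 in CD24- to 26.2 in CD24+ cells, next to Plat.

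Levels of different genes were compared only per length, as CPM per kilobase of transcript positions where a read can lie in an exon. Only reads on the main transcript enter this measure, 375 of 654 reads for Tfpi, so the level of Tfpi is understated and its place in the order is not settled. Reads of a member's transcripts under another annotation are also left out, 13.6% for Thbd, 10.0% for Tfpi and 3.49% for Plaur. For Tfpi only 14 of these 73 reads matched its transcripts alone, and the others also matched a transcript of another gene. All of those of Thbd and Plaur matched the member alone. The levels of Thbd and Plaur are thus somewhat understated too. In CD24- cells Plaur (152 ± 30.2, SD, n = 3) and Plau (146 ± 20.3) were highest and not apart beyond their spread. They were followed by Plat (18.3 ± 5.87) and F3 (4.86 ± 0.763), and then by Serpine2 (3.45 ± 1.09) and Serpinb2 (2.84 ± 2.46). The place of Serpinb2 rests on CD24- replicate 3, where it was at 5.68, within the range of F3. In replicates 1 and 2 it was at 1.55 and 1.28, below Serpine2 at 4.10 and 4.06. Over the 3 libraries it was thus not apart from F3 or Serpine2. On its main transcript Tfpi was at 2.80 ± 0.337. Thbd (0.237 ± 0.0533) and Serpinf1 (0.132 ± 0.170) were lowest and not apart. In CD24+ cells Plau (133 ± 20.8) and Plaur (105 ± 18.3) still led without being apart. Serpine2 (26.2 ± 4.57) stood beside Plat (25.3 ± 2.51), from which it did not differ beyond its spread, above F3 (9.37 ± 1.93). Tfpi was at 3.50 ± 0.533 on its main transcript. Thbd (2.44 ± 0.402) and Serpinf1 (2.07 ± 0.926) followed without being apart, and Serpinb2 (0.218 ± 0.0758) was lowest. The level of Serpine2 per length was 2.55%, 2.63% and 1.79% of that of Plau in the CD24- and 17.1%, 19.4% and 23.2% in the CD24+ libraries. Of the Plat level it was 20.1%, 17.8% and 18.7% in CD24- and 99.3%, 96.8% and 114% in CD24+ libraries. The inhibitor transcript thus stood at a larger fraction of either activator transcript in every CD24+ library than in any CD24- library.

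RefSeq windows (GRCm38.p6) of 250 bases before and 50 after a start site were found for 6 of the 9 genes, and none is shown for Plau, Plat and Thbd. Both strands were searched for 4 motifs. The AP-1 motif was spelled TGANTCA, where N is any base. The GC box, which zinc finger factors of the Sp family bind, was spelled GGGCGG. The TATA box, which positions the transcription machinery at some start sites, was spelled TATAAA. The cyclic AMP response element was spelled TGACGTCA and was found in no window of the members. In these windows no match overlapped a match of another motif. The upstream parts of the 3 genes that rose and had a window are printed with matches in capitals:
Serpine2, chr1:79858666-79858915, minus strand: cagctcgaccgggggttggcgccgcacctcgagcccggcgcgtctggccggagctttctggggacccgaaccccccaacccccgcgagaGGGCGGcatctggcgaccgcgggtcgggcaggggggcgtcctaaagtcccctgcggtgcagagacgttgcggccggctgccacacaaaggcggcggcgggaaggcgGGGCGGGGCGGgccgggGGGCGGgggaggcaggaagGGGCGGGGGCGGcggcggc
Serpinf1, chr11:75422624-75422873, minus strand: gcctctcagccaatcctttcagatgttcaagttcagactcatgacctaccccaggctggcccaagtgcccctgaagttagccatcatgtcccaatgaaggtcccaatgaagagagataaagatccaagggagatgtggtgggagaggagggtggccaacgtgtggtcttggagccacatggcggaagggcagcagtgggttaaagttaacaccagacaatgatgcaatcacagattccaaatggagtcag
F3, chr3:121723287-121723536, plus strand: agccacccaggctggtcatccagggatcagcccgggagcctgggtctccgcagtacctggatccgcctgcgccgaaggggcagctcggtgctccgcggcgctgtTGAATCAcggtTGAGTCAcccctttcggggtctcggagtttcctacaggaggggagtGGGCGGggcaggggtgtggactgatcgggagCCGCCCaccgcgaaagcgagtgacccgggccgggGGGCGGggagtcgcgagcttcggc
Serpine2 held 6 GC box matches, Serpinf1 held none of the searched motifs, and F3 held a pair of AP-1 matches 146 and 135 bases before the start site, 3 GC box matches and a TATA box match 43 bases after it, past the printed part. Plaur, which fell, held an AP-1 match 69 bases before its start site and 3 GC box matches. Serpinb2, which also fell, held an AP-1 match and a TATA box match 94 and 29 bases before a start site. Of 32851 promoters of this length 7.81% held the AP-1 letters, 35.7% the GC box, 13.6% the TATA box and 1.79% the cyclic AMP element. These matches describe letters and were not tested as binding sites.

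Other genes of the pathway were taken from 4 lists of 87 genes, 30 of which had enough reads to test. CD24+ cells had more of 6 and less of 13 of them, and 11 did not pass (63.3% called, beside 46.1% of all genes tested). Some of the lower genes, named below, had enough reads to test only through their CD24- level. The share called thus cannot be set plainly against that of all genes tested. In the plasminogen system, 7 of 15 listed genes were tested and 1 was called (14.3%, median log2 fold change 0.19). This was Mrc2, an endocytic collagen receptor that associates with the urokinase receptor, which went from 17.8 ± 7.37 to 247 ± 34.9 CPM (SD, n = 3 each, log2 fold change 3.78, SE 0.25, adjusted p = 1.24e-06, edgeR). Plg, the substrate itself, had no read in any library, where 3 reads would be 0.157 to 0.472 CPM. Plasminogen receptors, named after their values were seen, did not pass the test, with log2 fold changes of 0.19 for Anxa2 (adjusted p = 0.143), -0.23 for S100a10 (adjusted p = 0.0666), and 0.21 for Plgrkt (adjusted p = 0.187, edgeR).

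**Figure D4:**
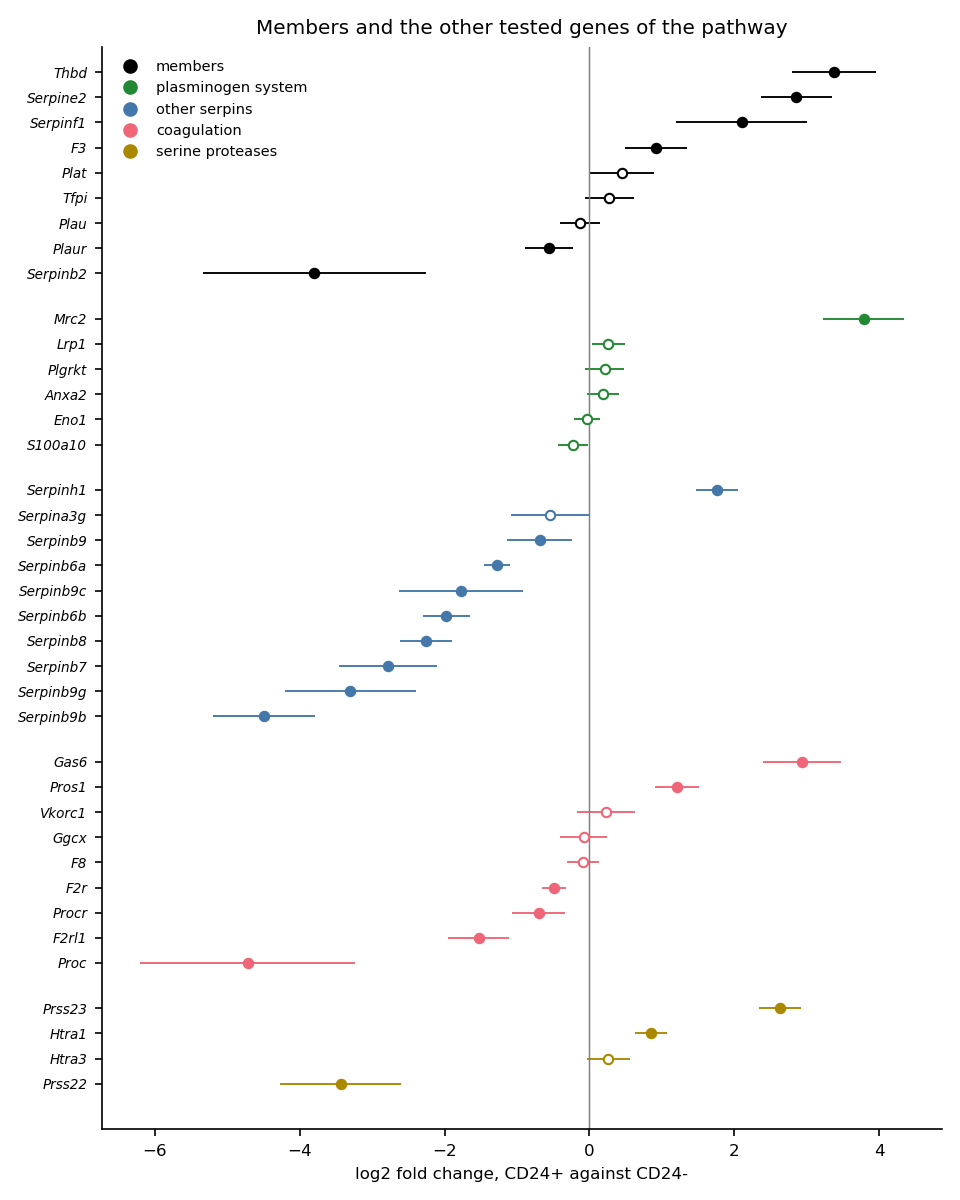
Log2 fold change of CD24+ against CD24- cells (points) with 95% intervals (bars) for the 9 members and 29 of the other tested genes of the lists, filled where the edgeR adjusted p was below 0.05. The serpins of clade B lie left of 0 while Thbd, Serpine2 and Serpinf1 lie right of it.

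Among other serpins, 11 of 36 listed genes were tested, of which 8 were lower and 1 was higher (median log2 fold change -1.78). That is 81.8% called, beside 46.1% of all genes tested. The 25 others had between 1 and 53 reads over all libraries. Of 17 listed serpins of clade B outside the 9 genes 8 were tested. All 8 were called lower in CD24+ cells, beside 22.3% of all genes tested. Their log2 fold changes ran from -4.49 to -0.69 around a median of -2.12, and the highest adjusted p was 0.0180 (edgeR). The groups did not overlap for 7 of the 8, beside 27.6% of all genes tested that were lower without overlap, and those of Serpinb9 did. Serpinb7, Serpinb9c and Serpinb9g had enough reads to test only through their CD24- level. Such entry favours a lower call and ranges that do not overlap. The counts of 8 and 7 thus cannot be set plainly against the 22.3% and 27.6%, nor the 81.8% against the 46.1%. Serpinb9b fell most, from 104 ± 45.5 to 4.72 ± 0.964 CPM (-4.49 on the log2 scale, adjusted p = 1.91e-06, edgeR). It was followed by Serpinb9g (-3.30), Serpinb7 (-2.79), Serpinb8 (-2.26), Serpinb6b (-1.97) and Serpinb9c (-1.78). In CD24+ libraries Serpinb9g had 1, 3 and 8 reads and Serpinb9c 2, 8 and 10, and the log2 fold change of Serpinb9g was -4.01 with CD24+ replicate 3 left out. Serpinb6a, an abundant inhibitor of the cell interior, went from 509 ± 8.83 to 210 ± 15.5 CPM and, like Serpinb9, is named here after its value was seen. Serpinb7, Serpinb2 and Serpinb8 lie near each other on chromosome 1, with median read positions of 109348343, 109420442 and 109503056 (mm9), whereas Serpinb6a, Serpinb6b and the Serpinb9 genes lie on chromosome 13. Cd68, Itgam and the epithelial keratin Krt18 (692 to 761 CPM in CD24- and 200 to 232 CPM in CD24+ libraries) were lower together with these serpins, and their part in that result was not tested. Krt8 was lower too, but other markers of the same lists were not. The epithelial Cldn3 was higher in CD24+ libraries, Itga2b and Gp1ba overlapped, and Ptprc was read in CD24+ replicate 3 alone. The Serpinb9 and Serpinb6 genes are close paralogs, and an exact match can assign their shared reads to a wrong copy. The 1 serpin that rose was Serpinh1, a collagen chaperone of the endoplasmic reticulum, named after its value was seen, from 193 ± 12.7 to 653 ± 125 CPM (1.76 on the log2 scale, adjusted p = 2.93e-06, edgeR).

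**Figure D5:**
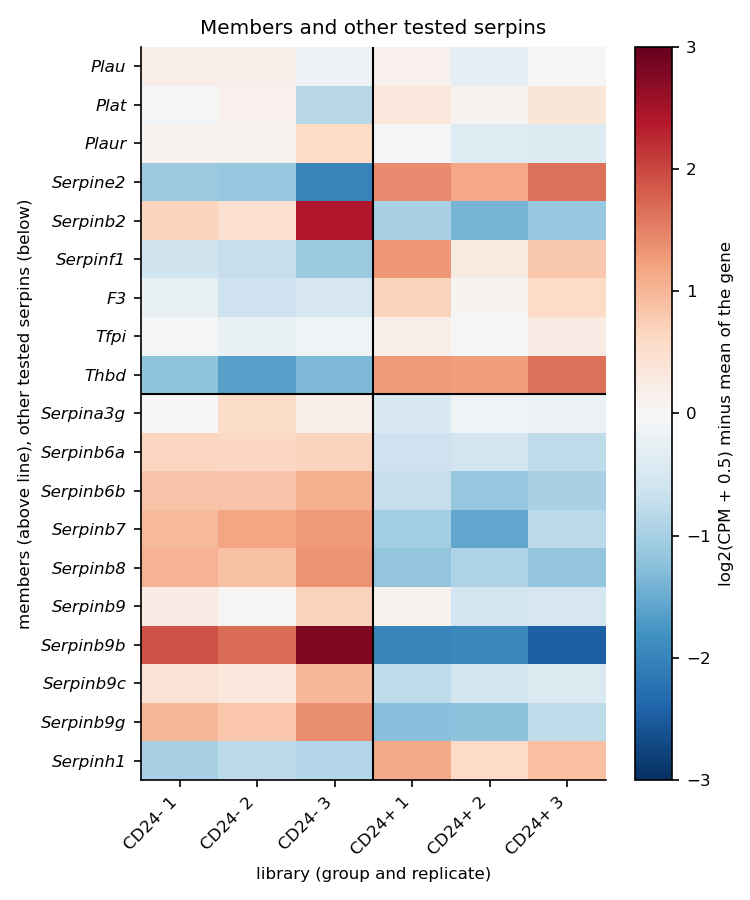
Log2(CPM + 0.5) minus the mean of each gene over the 6 libraries, red above and blue below it, for the 9 members (above the line) and 10 other tested serpins (below). Serpine2, Serpinf1 and Thbd are red in the 3 CD24+ libraries, and the clade B serpins with Serpinb2 are mostly blue there, with Serpinb2 darkest in CD24- replicate 3.

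In the coagulation list, 9 of 25 genes were tested, 2 higher and 4 lower (median log2 fold change -0.09). That is 66.7% called, beside 46.1% of all genes tested (23.8% higher and 22.3% lower). Proc had enough reads to test only through its CD24- level. Such entry favours a lower call, so the 66.7% cannot be set plainly against the 46.1%. Gas6, a vitamin K-dependent ligand of TAM receptors, rose from 18.3 ± 6.89 to 140 ± 29.3 CPM (2.93 on the log2 scale, adjusted p = 5.70e-06, edgeR), and Pros1, the protein S cofactor of activated protein C, rose from 9.24 ± 1.11 to 21.2 ± 1.99 CPM (1.21, adjusted p = 5.72e-05). Of the protein C pathway that thrombomodulin belongs to, Pros1 thus rose with Thbd, while 2 others fell. Procr, the endothelial protein C receptor, fell from 156 ± 30.5 to 96.5 ± 20.8 CPM (-0.70, adjusted p = 0.00553, edgeR). Proc, protein C itself, had 17, 17 and 9 reads in CD24- and 0, 0 and 2 reads in CD24+ libraries, a CD24+ level of 3.12% of the CD24- level (95% exact interval 0.366% to 12%, counting error only). Both CD24+ reads were in replicate 3, and the fitted log2 fold change, which at such counts depends on the prior count, was -4.72, -6.99 without that library and -4.07 without CD24+ replicate 2. The thrombin receptor F2r fell from 199 ± 3.80 to 142 ± 5.13 CPM (-0.49, adjusted p = 3.49e-04, edgeR), and F2rl1, a receptor cleaved by trypsin-like proteases, fell from 39.8 ± 2.02 to 14.4 ± 4.86 CPM (-1.53, adjusted p = 9.82e-05).

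In the list of serine proteases, 4 of 13 genes were tested, 2 higher and 1 lower (median log2 fold change 0.56). That is 75% called, beside 46.1% of all genes tested. Prss22 had enough reads to test only through its CD24- level. Such entry favours a lower call, so the 75% of so few genes cannot be set plainly against the 46.1%. The secreted protease Prss23 rose from 11.3 ± 0.354 to 69.9 ± 9.76 CPM (2.63, adjusted p = 1.75e-07, edgeR). Htra1, a secreted protease of matrix proteins, rose from 241 ± 22 to 436 ± 44.8 CPM (0.85, adjusted p = 6.74e-05, edgeR), a call lost when copies of a sequence were ignored (0.32, adjusted p = 0.159). Prss22 fell from 6.93 ± 1.05 to 0.533 ± 0.461 CPM (-3.44, adjusted p = 4.20e-05, edgeR). It had 1, 7 and 20 reads in CD24+ libraries, and the log2 fold change was -4.37 with CD24+ replicate 3 left out.

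Likeness in pattern was measured as Pearson's r of log2(CPM + 0.5) over the 6 libraries, and any gene that differs between the groups shares that difference. For Plau, the member with the most CPM, the nearest genes were Paqr7 (0.995), Pigx (0.989) and Csn3 (0.986). For Serpinb2, the called member with the largest change, they were a gene annotated by a transcript identifier (0.994), Suox (0.994) and 1110013L07Rik (0.993). The rank of Serpinb2 passed to Thbd without CD24- replicate 3, at -2.81 against 3.41. With 10 added to quantile-normalized CPM it passed to Serpine2, at -0.55 against 1.75. With 6 libraries and 11125 genes such values are a description of these libraries.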

How the data were processed

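The 6 libraries (Mvt1 cells, 3 plates a sorted group) were sequenced as 51-nt reads, which the authors trimmed by 2 nt at each end to 47 nt. The authors deposited, for each library, counts of each distinct sequence that matched the mouse genome exactly, with its location and annotation, not normalized and not pooled. The build is mm9 in the submitters' processing notes. The mapping software and the annotation release were not given in the sources used here. Reads across exon junctions or variants are mostly lost, and the library kit does not mark strand, which leaves overlapping genes and close paralogs uncertain.

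Counts were summed per symbol, and reads without a gene annotation (repeats, noncoding RNA or nothing) were left out. Genes passing filterByExpr were tested with edgeR 4.0.16 (R 4.3.3) by its quasi-likelihood F test on TMM-scaled libraries, at a Benjamini-Hochberg adjusted p of 0.05. The test gives no SE. SEs were derived from the log2 fold change and the F statistic, and 95% intervals from them by a t quantile, so both are approximate at low counts. The procedure was tried on simulated data with only large changes, at mean levels above those of Serpinb2, Serpinf1 and Thbd. Low levels and small changes were not covered. Alternatives were DESeq2 1.42.0, limma 3.58.1 on quantile-normalized levels, other library totals and filters, copies of a sequence ignored, a replicate block, a fold minimum and each library left out. Transcripts of GENCODE M21 were matched by sequence, without coordinates. Named genes are the 9 members, Cd24a, Plg, up to 6 called genes a list by size of change, and the 3 genes most like Plau and Serpinb2. A further gene under this rule is not reported here, though list counts include it. The members and lists were chosen with earlier results of these data known. Intervals on summed reads cover counting error only.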

Additional observations from a re-analysis of the deposited data

Results flagged for a closer look

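Some reads matched a transcript of a member alone while carrying another annotation in the counts, mostly a repeat, and they enter no comparison above. There were 400 such reads for Plaur, 67 for Thbd, 26 for Plat, 14 for Tfpi, 6 for Serpine2 and 4 for Plau over the 6 libraries. Those of Plaur lay mainly under a B1 repeat (209 reads) and an L2 repeat (116 reads). When they were added, with all other reads matching a member alone, the calls of the 9 genes stayed on the same side of the threshold.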

How the results depend on the processing

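For the members, 149 of 153 alternative values stayed on their side of the threshold in the same direction, and none reversed. Plaur lost its call with each distinct sequence counted once and without CD24+ replicate 3, and Plat gained one without a filter on low counts (0.45, adjusted p = 0.0452, edgeR) and without CD24- replicate 2. Over all alternatives the adjusted p was 9.29e-04 to 0.114 for Plaur, 0.0318 to 0.253 for Plat, 7.43e-08 to 0.0210 for Serpinb2 and 2.72e-04 to 0.0151 for Serpinf1. The members lower in CD24+ cells were 2, and 1 with each distinct sequence counted once or with a minimum absolute log2 fold change of 1. With a library left out they were 1 to 2. Called genes were 5127, and 1599 (1002 higher, 597 lower) with that minimum, where the stricter threshold removes genes. They were 4069 to 5358 with a library left out. Counting each sequence once gave 1550 lower genes against 2478. Calls in the plasminogen list varied from 1 to 3 higher and 0 to 2 lower, the list of other serpins had 7 to 10 lower, the coagulation list had 2 to 4 lower and the protease list 1 to 2 higher. Htra1 lost its call with each sequence counted once (0.32, adjusted p = 0.159, edgeR). The cause of these changes was not tested. Thinning to the shallowest library and both transcript-matched counts were chosen after seeing the data and changed no call of a member.

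The groups share replicate numbers, but same-numbered libraries deviated from their group means with correlations of 0.0132, -0.271 and -0.323. These values show no pairing by number, though 3 libraries a group are too few to exclude it. With the replicate block 4493 genes and 6 members were called, and the log2 fold change of Cd24a was 2.94.

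Depth limits Serpinb2, Serpinf1, Thbd, Proc, Serpinb9g, Serpinb9c and Prss22, whose lower group rests on few reads.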
